A study of Mus musculus with 6 samples.

Results

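Arc, Npas4, the 4 early growth response genes (Egr1, Egr2, Egr3 and Egr4) and the 3 nuclear receptor 4A genes (Nr4a1, Nr4a2 and Nr4a3) were followed in the hippocampus of newborn mice raised in high oxygen. They were chosen by name, as a group that neurons transcribe within minutes of firing, a rule that uses no measured value, although earlier results of these data were known when the group was picked. They are 9 of the 24935 genes in the deposited table, and all 9 were among the 17778 genes tested (a mean value of at least 10 over the libraries). Air 1 to 3 and hyperoxia 1 to 3 below are the 6 libraries, 1 per mouse, as numbered in the deposited columns. The numbers name no animal and pair no libraries. The group of each library, and so the direction of every change given here, rests on the group name in its column header. No independent check of these names was made. In the authors' publication the mRNA fold changes of Arc, Egr1, Jun and Bdnf in hyperoxia are positive, opposite to those given here. So are those of Fos, Camk2a, Camk2b, Slc17a7, Pla2g2f, Espn and Tm6sf2, so the difference in sign is not particular to the 9 genes. Its text gives both directions for Arc and Egr1. This difference was not resolved.

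Both groups were C57BL/6 pups killed at postnatal day 14 (P14). The air group (n = 3) was kept in room air, and the hyperoxia group (n = 3) was kept with its dams in 85% oxygen from P2 to P14. The left hippocampus of each pup was frozen at once, so each library holds the RNA of every cell type of the hippocampus together with any neighbouring tissue taken with it. Strand-specific mRNA libraries were sequenced, with 30384052 to 38746972 reads on genes each. The litter of each pup and its sex are not known here. In such bulk RNA, fewer cells of a type and less RNA per cell cannot be told apart.

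These genes are immediate early genes: calcium entering an active neuron drives kinases that switch on factors already bound at their promoters (CREB at cAMP response elements, SRF with its ETS partners at CArG boxes), so no new protein is needed for their induction. Arc protein acts at the synapse, where it helps remove AMPA receptors. Npas4, the Egr and the Nr4a proteins are transcription factors that then change the expression of later genes, and several of them are needed for long-lasting plasticity and memory in the hippocampus.

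The sequences just upstream of these genes are shown because such elements are searched for there, and the letters can be read beside the changes of each gene. The RefSeq table of promoter windows (GRCm38.p6, 250 bases before to 50 after each start) matched 6 of the 9 genes, namely Npas4, Egr2, Egr4, Nr4a1, Nr4a2 and Nr4a3. Arc, Egr1 and Egr3 had no entry. Each sequence is 5′ to 3′ on the strand of its gene, lies outside annotated exons, and runs from 15 bases before its first motif to 15 after its last where those bases were free of exons. Capitals mark the core of the cAMP response element (TGACG on either strand), the CArG box of SRF and the 9-letter EGR site (GCGNGGGCG on either strand).
Egr2 at chr10:67537743-67537833, plus strand: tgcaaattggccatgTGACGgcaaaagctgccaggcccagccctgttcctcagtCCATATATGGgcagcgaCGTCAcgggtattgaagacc
Egr4 at chr6:85513679-85513781, minus strand: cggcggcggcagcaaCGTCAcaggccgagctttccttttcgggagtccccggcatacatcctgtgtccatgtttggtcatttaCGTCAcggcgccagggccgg
Nr4a1 at chr15:101266598-101266825, plus strand: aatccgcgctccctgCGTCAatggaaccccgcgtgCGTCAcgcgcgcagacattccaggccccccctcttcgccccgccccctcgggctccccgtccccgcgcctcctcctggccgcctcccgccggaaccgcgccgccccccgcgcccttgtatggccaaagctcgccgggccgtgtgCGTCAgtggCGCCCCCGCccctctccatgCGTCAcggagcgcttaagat
Nr4a2 at chr2:57124054-57124218, minus strand: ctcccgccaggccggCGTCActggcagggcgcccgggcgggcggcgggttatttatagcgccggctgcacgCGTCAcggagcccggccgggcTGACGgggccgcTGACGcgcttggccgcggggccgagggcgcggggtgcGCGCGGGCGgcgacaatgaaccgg
Nr4a3 at chr4:48045059-48045119, plus strand: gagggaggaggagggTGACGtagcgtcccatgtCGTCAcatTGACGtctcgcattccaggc
Each of the 6 genes had a window with at least 2 cores. For Egr2 this held in only some of its 5 windows, while the shares given below are per window. The windows of Nr4a1, Nr4a2 and Nr4a3 each held 4, of which the stretch of Nr4a3 shows 3 because the other lies in an exon. Of all 32851 windows of this length in the table, 20.8% held at least 1 core, 5.01% at least 2 and 0.231% at least 4. The full element of 8 letters (TGACGTCA, which contains the core on each strand) was in 1.79% of all windows and in none of these. The CArG box, present in 1.63% of all windows, was found beside Egr2 alone among the 6. The box was in 4 of the 5 Egr2 windows, which overlap in part, and 1 window is shown. That window was picked for the most motifs among those with all 250 bases before the start outside exons. The EGR site, present in 5.55% of all windows, was found beside Nr4a1 and Nr4a2. The NBRE, the site that Nr4a proteins bind as monomers (AAAGGTCA on either strand, 1.51% of all windows), was in none of the 6. The Npas4 window held 2 cores but lies wholly in an annotated exon and is not shown. These are matches of letters and not measured binding.

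Of the 9 genes, 6 were lower in hyperoxia by limma (adjusted p under 0.05 over all tested genes) and none was higher. The 6 were Arc, Npas4, Egr1, Egr2, Egr4 and Nr4a1. Egr3, Nr4a2 and Nr4a3 did not pass. At an unadjusted p under 0.05, 7 of the 9 were lower, with Egr3 added, against 21.7% of all tested genes. On the recovered reads edgeR called the same 6 genes and DESeq2 those and Egr3, all lower, while edgeR called 15.3% and DESeq2 15.1% of all tested genes lower. Much of the transcriptome differed between the groups, and the same test called 30.5% of all tested genes, 15.6% lower and 14.9% higher. The median log2 fold change was -0.77 over the 9 genes and -0.01 over all tested genes. In the same 6 genes every hyperoxia library lay below every air library, which was so for 23.8% of all tested genes. For each of these 6 the exact two-sided permutation test gave p = 0.1, the smallest that 3 libraries against 3 allow. Values below are read counts that the authors divided by a DESeq2 size factor for each library, given as mean ± SD (n = 3). Log2 fold changes are hyperoxia minus air on the value plus 1, with their standard error (SE).

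**Figure D1:**
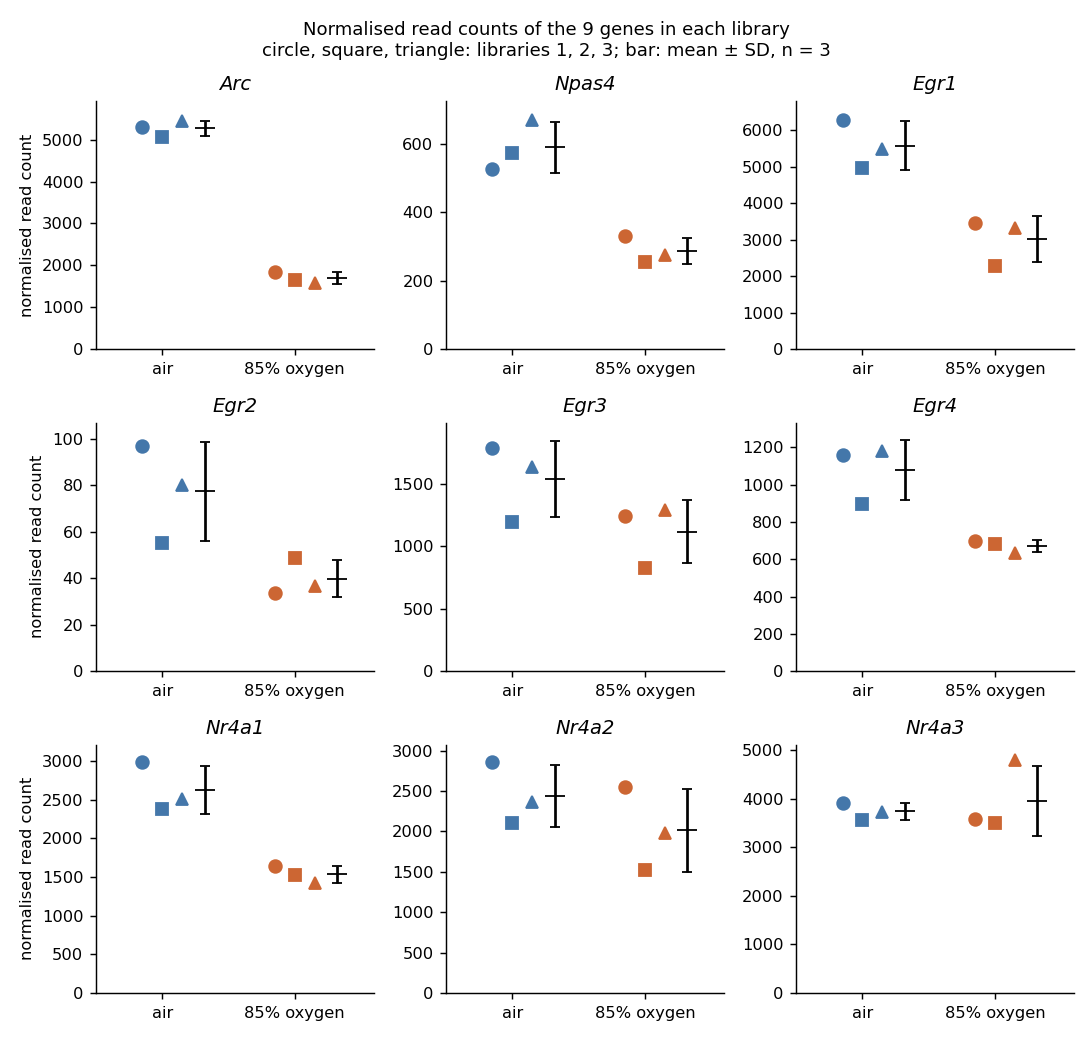
Normalised read counts (y axes, from 0) of the 9 genes in the 3 air libraries (blue) and the 3 hyperoxia libraries (orange, 85% oxygen); black bars are mean ± SD. The groups are apart for Arc, Npas4, Egr1, Egr2, Egr4 and Nr4a1 and overlap for Egr3, Nr4a2 and Nr4a3.

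Arc (ENSMUSG00000022602.14, chr15:74669083-74672570 in GRCm38, minus strand) is the effector of the group, a protein made near active synapses. It had 5294, 5074 and 5436 normalised counts in air 1, 2 and 3 and 1850.1, 1646 and 1574 in hyperoxia 1, 2 and 3. Every hyperoxia library was far below every air library, and the libraries within each group lay close together. The mean fell from 5268 ± 183 to 1690.2 ± 143, to 32.1% of air, with a log2 fold change of -1.64 (SE 0.08, 95% interval -1.82 to -1.47, limma adjusted p = 4.74e-05). Only 55 of the 17778 tested genes had a more negative fold change.

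Npas4 (ENSMUSG00000045903.8, chr19:4984355-4990316, minus strand) encodes a bHLH-PAS transcription factor that is induced by calcium and shapes inhibitory and excitatory synapses. Its counts were 525, 572 and 669 in air and 329.7, 254 and 276 in hyperoxia, again with no overlap. The mean went from 589 ± 73.4 to 286 ± 39.1, which is 48.6% of air, with a log2 fold change of -1.04 (SE 0.13, limma adjusted p = 9.05e-04). After Arc it had the most negative fold change of the 9.

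The Egr genes encode zinc finger factors with nearly the same DNA-binding domain. Egr1 (ENSMUSG00000038418.7, on chromosome 18), the best known of them and used as a marker of synaptic plasticity, had 6285, 4958 and 5495 counts in air and 3448, 2284 and 3328 in hyperoxia. The groups did not overlap, although hyperoxia 2 was well below the other hyperoxia libraries. The mean changed from 5579 ± 668 to 3019.97 ± 641, with a log2 fold change of -0.90 (SE 0.15, limma adjusted p = 0.00275). Egr2 (ENSMUSG00000037868.15, chr10:67535475-67542188, plus strand), which also governs myelination in peripheral nerve, was by far the least abundant of the 9. It had 97.0, 54.95 and 80.1 counts in air and 33.6, 48.7 and 36.7 in hyperoxia. Air 2 and hyperoxia 2 came close to each other without crossing. The mean fell from 77.3 ± 21.2 to 39.7 ± 7.97 (log2 fold change -0.93, SE 0.25, limma adjusted p = 0.0195). Its call was lost without air 1 (adjusted p = 0.0929), air 3 (0.0689) or hyperoxia 1 (0.0715), all by limma.

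Egr3 (ENSMUSG00000033730.3, chr14:70077203-70082614, plus strand) is also needed for muscle spindles. It had 1788, 1197 and 1632 counts in air and 1240.2, 826 and 1289 in hyperoxia, so air 2 lay under hyperoxia 1 and hyperoxia 3. The log2 fold change was -0.47 (SE 0.19, 95% interval -0.89 to -0.05), and it missed the threshold over all genes (limma adjusted p = 0.0851). It passed with DESeq2 (adjusted p = 0.0378), and with limma without air 2 (0.0468) or without hyperoxia 3 (0.0426). Egr4 (ENSMUSG00000071341.4, chr6:85511121-85513589, minus strand), also known as NGFI-C, had 1161, 894 and 1182 counts in air and 697, 684 and 635 in hyperoxia. Its hyperoxia libraries were the most alike of any of the 9 genes relative to their mean, and all lay below air 2, the lowest air library. The mean went from 1079 ± 160.2 to 672 ± 32.8 (log2 fold change -0.67, SE 0.11, limma adjusted p = 0.00279).

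The Nr4a genes encode orphan nuclear receptors that act without a known natural ligand. Nr4a1 (ENSMUSG00000023034.6, chr15:101254269-101274795, plus strand), also known as Nur77, had 2982, 2382 and 2510.1 counts in air and 1646, 1527 and 1423 in hyperoxia. The groups were well apart. The mean fell from 2625 ± 316 to 1532 ± 112, to 58.4% of air, with a log2 fold change of -0.77 (SE 0.10, limma adjusted p = 9.80e-04).

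Nr4a2 (ENSMUSG00000026826.13, chr2:57106830-57124003, minus strand), or Nurr1, is required for midbrain dopamine neurons and is expressed in glutamatergic neurons too. It had 2860.1, 2101 and 2360.25 counts in air and 2544, 1520.5 and 1974 in hyperoxia. Hyperoxia 1 lay above air 2 and air 3, and the log2 fold change of -0.30 (SE 0.17, 95% interval -0.69 to 0.09) did not pass (limma adjusted p = 0.221). Nr4a3 (ENSMUSG00000028341.9, chr4:48045153-48086447, plus strand), or Nor1, had 3917, 3571 and 3735 counts in air and 3592, 3498 and 4797 in hyperoxia. Hyperoxia 3 was the highest of the 6 libraries and the other hyperoxia libraries lay within or just under the air range. The log2 fold change was 0.07 (SE 0.12, 95% interval -0.19 to 0.33, limma adjusted p = 0.677), an interval that excludes a fall as large as that of Nr4a1. Without hyperoxia 3 it was -0.08. The exact permutation p was 0.3 for Egr3, 0.4 for Nr4a2 and 0.9 for Nr4a3.

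**Figure D2:**
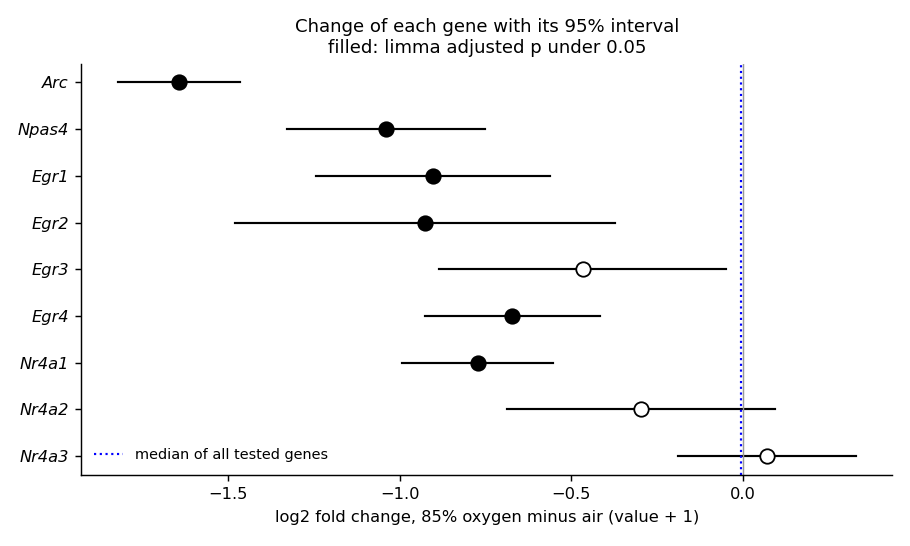
Log2 fold change (x axis, hyperoxia minus air) of each gene with its 95% interval from limma; filled points passed an adjusted p of 0.05 and the dotted line is the median of all tested genes. The fold changes run from -1.64 for Arc to 0.07 for Nr4a3, and those of Egr3, Nr4a2 and Nr4a3 did not pass. Egr3 and Nr4a2 turn positive (0.10 and 0.27) if libraries are scaled to glutamatergic markers. That scaling moves the median of all tested genes to 0.55, and relative to this median Egr3 and Nr4a2 lie at -0.46 and -0.29.

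The genes were also compared with each other. For each of the 36 pairs of the 9 genes, the log2 ratio of their counts was taken within each library and compared between groups by an exact two-sided permutation test. In 17 pairs the groups were apart (exact permutation p = 0.1 each), but after Benjamini-Hochberg adjustment over the pairs the smallest p was 0.212, so no pair passed. The share of pairs apart among all tested genes was not computed, so the 17 cannot be set against it. The ratio of Arc to each of the other 8 genes was lower in every hyperoxia library than in every air library, with differences from -0.60 (SE 0.11) against Npas4 to -1.71 (SE 0.20) against Nr4a3, both on the log2 scale. These 8 ratios share the counts of Arc and are not separate results. The ratios of Nr4a1 to Nr4a2 (difference -0.47, SE 0.19) and to Nr4a3 (-0.84, SE 0.21) had groups apart, while Nr4a2 and Nr4a3 overlapped in their ratio (-0.37, SE 0.27). Within the Egr family only Egr1 against Egr3 was apart (-0.44, SE 0.10), and the other 5 of the 6 pairs overlapped.

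Per kilobase of annotated exon, Arc was the most abundant of the 9 in air, with a normalised count of 1723 ± 59.7 per kb. It was followed by Egr1 (1244 ± 149), Nr4a1 (748 ± 90.0), Nr4a3 (625 ± 28.9), Nr4a2 (601 ± 95.02), Egr4 (502 ± 74.6), Egr3 (349 ± 69.6), Npas4 (142 ± 17.8) and Egr2 (22.8 ± 6.23). In that order the libraries of Nr4a3 and Nr4a2, and those of Nr4a2 and Egr4, overlapped, and the other neighbours were apart. In hyperoxia Egr1 (673.5 ± 143 per kb), Nr4a3 (662 ± 121), Arc (553 ± 46.8), Nr4a2 (496 ± 126) and Nr4a1 (437 ± 31.8) formed a run in which each overlapped the next. Egr4 (313 ± 15.3), Egr3 (254 ± 57.6), Npas4 (69.3 ± 9.46) and Egr2 (11.7 ± 2.35) followed in the same order as in air, each apart from its neighbours. In air the lowest library of Arc (1659.7 per kb) was above the highest of Egr1 (1402), and in hyperoxia the ranges of Arc, Egr1 and Nr4a3 overlapped.

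**Figure D3:**
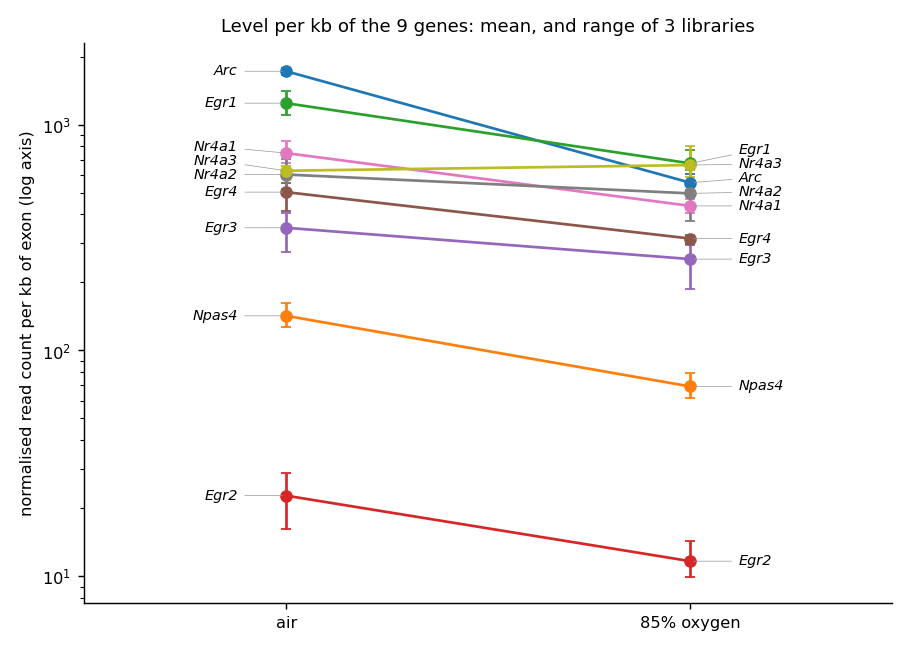
Normalised read count per kb of exon (y axis, log scale) of each gene in air and in 85% oxygen; points are means and bars the range of the 3 libraries. Arc leads in air at 1723 per kb and lies at 553 per kb in hyperoxia, among Egr1, Nr4a3, Nr4a2 and Nr4a1; the lower 4 genes keep their order.

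Within a group the genes did not all rank the libraries alike. Air 2 was the lowest air library for 8 of the 9 genes, all but Npas4, and air 1 was the highest for 6. Hyperoxia 1 was the highest hyperoxia library for 6 of 9 and hyperoxia 2 the lowest for 5, but Egr2 was highest in hyperoxia 2, and Egr3 and Nr4a3 were highest in hyperoxia 3. The median deviation of the 9 genes from their group mean was 0.18, -0.16 and 0.05 (log2) in air 1, 2 and 3 and 0.13, -0.16 and -0.04 in hyperoxia 1, 2 and 3. In hyperoxia the deviations of single genes went both ways in each library, from -0.22 to 0.37, -0.41 to 0.31 and -0.10 to 0.29. The 9 genes share their libraries, and these values are a description with no test.

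Other genes of the activity response moved in both directions. The counts in this list and in those below stand beside 15.6% of all tested genes called lower and 14.9% called higher. Among 24 further fast response genes, 7 fell, 5 rose and 12 did not pass, with a median log2 fold change of -0.07. The AP-1 genes Fosb (log2 fold change -0.98, limma adjusted p = 0.00176), Jun (-0.73, 6.46e-04) and Junb (-0.63, 0.00248) were the most lowered. Fosb went from 202 ± 34.1 to 100.9 ± 3.05 counts. Fos, the most widely used marker of neuronal activity, had 197, 196 and 257 counts in air and 167, 171 and 181 in hyperoxia. Its groups did not overlap, but its log2 fold change of -0.31 did not pass (limma adjusted p = 0.108). Rises were largest for Maff (1.08, limma adjusted p = 0.00442), Klf4 (0.97, 0.00201) and Cyr61 (0.91, 7.72e-04). Maff encodes a small Maf factor, Klf4 a zinc finger factor and Cyr61 a secreted matrix protein, and none is specific to neurons. Prdx2 overlaps the exons of Junb on the other strand, and no source says if reads were assigned by strand, so the value of Junb is uncertain.

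Of 14 later effectors, the genes through which an activity signal reaches synapses, 6 fell, 1 rose and 7 did not pass (median -0.20). Ptgs2, which encodes cyclooxygenase-2, had a log2 fold change of -0.89 (limma adjusted p = 0.0030). Nrn1, which encodes the growth-promoting protein neuritin, had -0.88 (3.28e-04), with 10591.5 ± 639.95 counts in air and 5741 ± 459 in hyperoxia. Bdnf, the neurotrophin gene that Npas4 and CREB activate, had 1699, 1632 and 1416 counts in air and 1104, 1099 and 1291 in hyperoxia. All of its hyperoxia libraries were below all air libraries (log2 fold change -0.44, SE 0.10, limma adjusted p = 0.00893). Pcsk1, a prohormone convertase, rose by 0.96 (limma adjusted p = 0.00426).

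Upstream regulators moved in both directions, as did tested genes at large (15.6% called lower and 14.9% higher). In the CREB route, 1 of 8 genes rose (Camk4, a nuclear kinase that phosphorylates CREB, 0.92, limma adjusted p = 0.00204), 1 fell (Crtc2, a CREB coactivator, -0.72, 4.03e-04) and 6 did not pass, among them Creb1 itself at -0.01. In the SRF and ERK route, 3 of 10 genes fell, 2 rose and 5 did not pass. Srf went from 2897 ± 103 to 2018 ± 56.5 counts (log2 fold change -0.52, limma adjusted p = 9.98e-04), and its partners Elk1 (-0.57, 7.04e-04) and Mkl1 (-0.45, 0.00152) were lower too. Rps6ka5, a kinase that phosphorylates histone H3 and CREB (0.56, limma adjusted p = 0.0107), and Elk3 (0.34, 0.0281) rose. Of the 3 MEF2 genes, Mef2c rose (1.24, limma adjusted p = 0.00392), Mef2d fell (-0.28, 0.0335) and Mef2a did not pass. The hyperoxia libraries of Mef2c spread widely, at 14434, 8229.6 and 6644 counts.

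Among 7 partners and corepressors, 2 fell, 1 rose and 4 did not pass. Nab2, a corepressor that binds Egr proteins and is itself induced by them, had 1354, 1185.5 and 1045 counts in air and 551, 725 and 528 in hyperoxia. It fell by 0.997 on the log2 scale (SE 0.14, limma adjusted p = 0.00122), with groups well apart. Its relative Nab1 was at 0.22 and did not pass (limma adjusted p = 0.1003). Arnt2, the dimer partner of Npas4, rose by 0.28 (limma adjusted p = 0.026), and Rxrb, a retinoid X receptor, fell by 0.24 (0.0382). Of 10 partners of Arc protein, 5 fell and 5 did not pass, and all 10 fold changes were negative (median -0.23). The lowest were Baiap2 (-0.78, limma adjusted p = 2.81e-04), Camk2b (-0.57, 0.00208) and Wasf1 (-0.57, 0.00287), which act in dendritic spines. Exons of Stat6 and Nemp1 overlap those of Nab2 on the other strand, as do those of Sgsm3 for Mkl1, Cdk17 for Elk3 and Fars2 for Nrn1, and exons of Uxt overlap Elk1 on the same strand. No exon of another gene overlaps any of the 9.

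**Figure D4:**
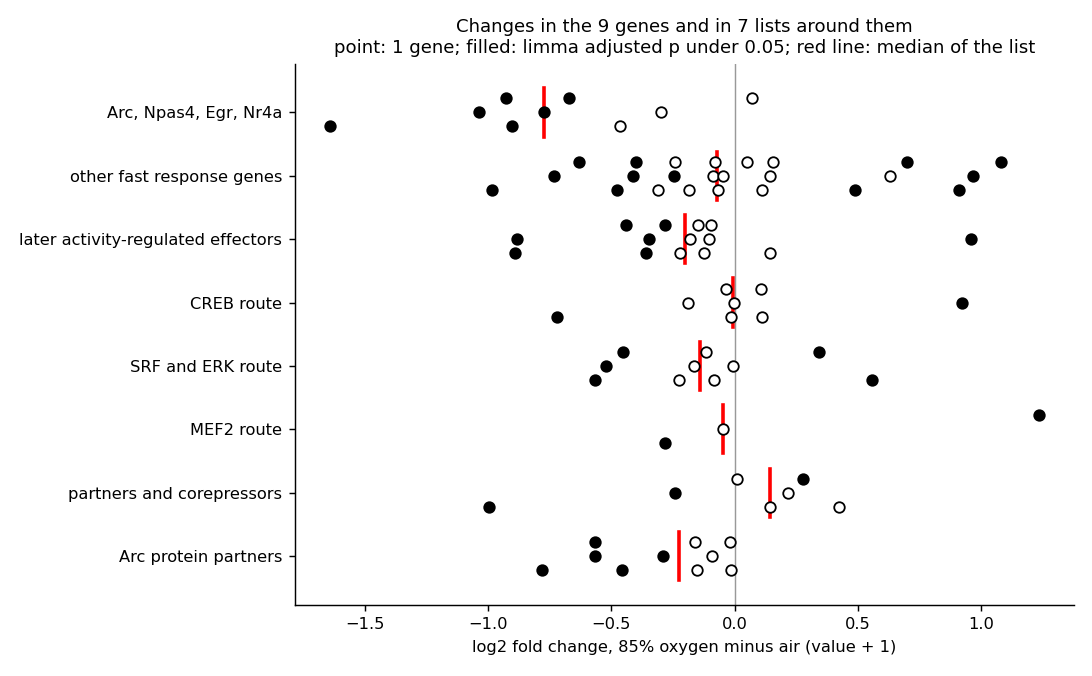
Log2 fold change (x axis, hyperoxia minus air) of every gene of the 9 and of 7 lists around them; each point is a gene, filled where limma's adjusted p was under 0.05, and the red line is the median of its list. The median is -0.77 for the 9 genes and lies between -0.23 and 0.15 for the 7 lists.

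Markers of cell types were set beside these values, since activity induces the 9 genes strongly in excitatory neurons. All 5 markers of glutamatergic neurons fell (Slc17a7 -0.34, Camk2a -0.51, Neurod2 -0.71, Neurod6 -0.75, Nrgn -0.89). Their summed count was 305214 to 324676 in air and 200575 to 223635 in hyperoxia, and Camk2a made up most of it in every library. Of 5 dentate granule cell markers 3 fell and 2 did not pass, with sums of 64.9% to 94.4% of the air mean in hyperoxia and hyperoxia 3 the highest. Of 6 general neuronal markers 3 fell and 2 rose, and the sums of the groups overlapped (172470 to 174643 in air, 173383 to 181491 in hyperoxia). CA1 (1 of 5 rose), CA3 (1 rose, 2 fell of 5) and GABAergic markers (1 rose, 1 fell of 6) also had overlapping sums. Markers of each of these cell types were present in every library.

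Oligodendrocyte markers were lower (4 of 5 fell, sums of 54.0% to 66.5% of the air mean in hyperoxia and 76.9% to 116% in air). Summed astrocyte markers were higher (3 of 5 rose, 124% to 143%), and Slc1a2 made up most of the sum. Gfap (0.06) and Gja1 (-0.09) did not pass, and every hyperoxia library of Gja1 lay below every air library. The sums of neocortical (3 of 5 rose, 122% to 185%) and thalamic markers (3 of 5 rose, 152% to 184%) were higher too. In these lists Fezf2 (-0.21) and Prkcd (-0.21) were negative and did not pass. Of 5 endothelial markers 2 rose and 1 fell, and of 5 microglial markers 1 rose. Choroid plexus markers, of which 4 of 5 were tested and did not pass, summed to 8055 in hyperoxia 3 against 451 to 1391 in the other libraries. Summed over the 9 genes, hyperoxia libraries were at 53.6% to 67.1% of the air mean. The part of cell type or tissue make-up in the changes of the 9 genes was not tested. With each library scaled to its glutamatergic marker sum, an alternative chosen after the data were seen, Arc (-1.08, limma adjusted p = 4.57e-06), Npas4 (-0.48, 0.0113) and Egr1 (-0.34, 0.0436) remained lower. The calls of Egr2 (-0.37, 0.182), Egr4 (-0.11, 0.442) and Nr4a1 (-0.21, 0.105) were lost, and Nr4a3 rose (0.63, 1.18e-04). That scaling moved the median of all tested genes from -0.01 to 0.55, and relative to this median Arc was at -1.63 and Nr4a3 at 0.08.

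**Figure D5:**
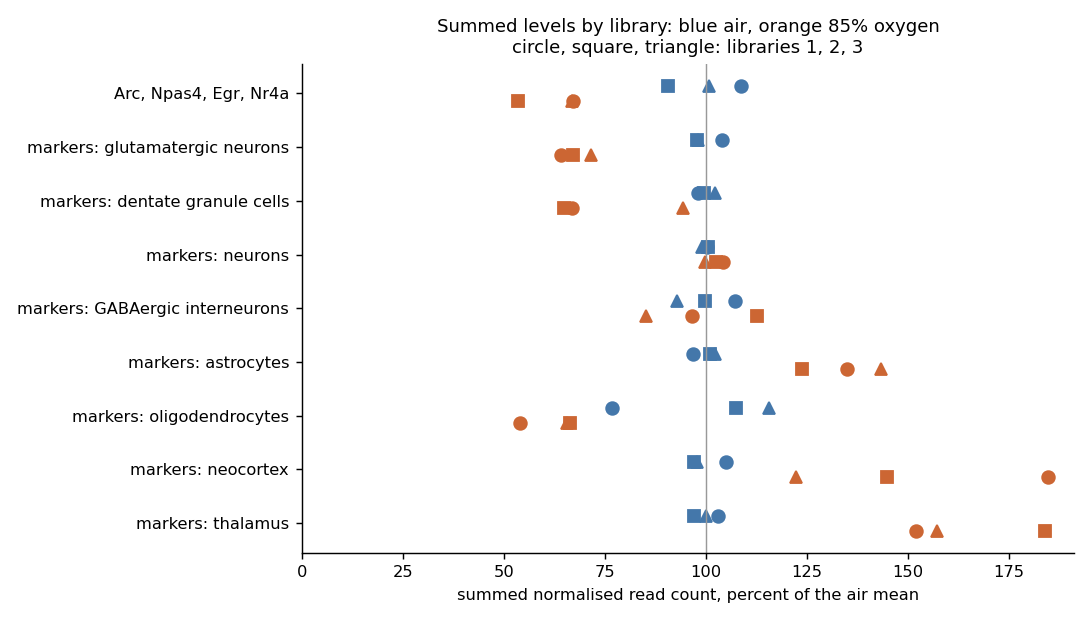
Summed normalised count of the 9 genes and of 8 marker lists in each library (x axis, percent of the air mean, from 0); blue is air and orange is 85% oxygen. The sums of the 9 genes (53.6% to 67.1% in hyperoxia) and of the glutamatergic markers (64.3% to 71.7%) are lower in all 3 hyperoxia libraries. The sums of the astrocyte, neocortical and thalamic markers are higher in all 3, although not every marker rose.

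The genes most like the median profile of the 9, by the root mean square difference of centred log2 values over the 6 libraries, were Sds, Polr2a, Gm20394, A230103J11Rik and Smim1 (0.0725 to 0.0861). Polr2a, which encodes the largest subunit of RNA polymerase II, went from 5416 ± 737 to 3391 ± 283 counts (log2 fold change -0.67, limma adjusted p = 0.00222). Sds, A230103J11Rik and Smim1 share exon sequence with genes on the other strand. The genes most like Arc were Gm27003, Mir5125, Pla2g2f, Espn and Tm6sf2 (0.112 to 0.185), with air means of 53.2 to 1199.7 counts. Gm27003 is antisense to Gabpb1 and overlaps its exons. Likeness over 6 libraries is dominated by the difference between the groups and is a description.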

How the data were processed

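Signal values for 24935 genes in 6 libraries were deposited by the authors: read counts per gene divided by 1 size factor per library. The processing notes name FastQC, STAR 2.5.3a, HTSeq and DESeq2. Genome build, annotation and strand of that counting were not given in the sources used here. A second deposited file holds the authors' own comparison of the groups and was not used.

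Dividing by the value of a read gave whole numbers (100% within 0.01), so reads were recovered, 30384052 to 38746972 per library. Replicates differed by more than sampling noise, and more so in hyperoxia (chi-square per gene 6.54 to 10.5 between air libraries). Between hyperoxia libraries it was 15.1 for hyperoxia 1 and 3, and 31.4 and 47.2 for the pairs with hyperoxia 2. Genes with a mean of at least 10 were tested with limma 3.58.1 (R 4.3.3, mean-variance trend) on log2 of the value plus 1, with Benjamini-Hochberg adjustment over 17778 genes and a threshold of 0.05. Fold changes on this scale understate those of low genes. For the 9 genes the reads per library ran from 38 to 6674. The limma p-values rest on the spread between these mice, taken as the same in both groups and moderated by a trend over all tested genes. They cannot cover the spread between litters, which are not known.

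Positions, exon lengths and overlaps came from GENCODE M21 (GRCm38), in which 24861 of the 24935 identifiers were found. Promoter windows came from RefSeq (GRCm38.p6). The named genes were the 9, up to 3 called genes with the largest rise and up to 3 with the largest fall in each list, Nab1, Nab2, Arnt2, Fos, Bdnf and Srf, and the 5 genes most like the members' median profile and most like Arc. Creb1, Mef2a, Slc1a2, Gfap, Gja1, Fezf2 and Prkcd were named after their values were seen. The 9 genes, the lists and the markers were chosen with earlier results of these data known. Alternatives were edgeR 4.0.16 (quasi-likelihood) and DESeq2 1.42.0 on the recovered reads, TMM scaling, quantile normalization, a filter at a mean of 50 and none, pseudocounts of 5 and 0.5, limma without the trend, a length and GC correction (mgcv 1.9.3), each library left out, and a scaling to glutamatergic markers added after the data were seen. The limma test alone was run on simulated counts, which had the same dispersion for every gene and fewer changed genes than were called here. Other software was scipy 1.17.1, numpy 2.4.6, pandas 2.3.3 and matplotlib 3.10.9 under Python 3.11.15.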

Additional observations from a re-analysis of the deposited data

How the results depend on the processing

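Over 17 alternatives (16 planned, 1 added after the data were seen), Arc, Npas4 and Egr1 were lower by the test in all 17, Egr4 and Nr4a1 in 16, Egr2 in 13 and Egr3 in 3. Nr4a2 was called in none, and Nr4a3 in 1, where it was higher. The log2 fold change of Arc lay between -1.71 and -1.08. The number of the 9 genes called was 6 in the main test, 4 under the scaling to glutamatergic markers and 5 to 7 when a library was left out. That scaling called 12550 of all genes and gave 0.096 for Egr3 and 0.266 for Nr4a2. Because it moves nearly all genes one way, 2.10% of its calls were lower, against 51.3% in the main test. With a library left out, 3048 (without air 1) to 7756 (without hyperoxia 2) genes were called, against 5425 with all. The count moved by over 1.5 times without air 1, air 2 (3087) or hyperoxia 1 (3378), and by less without each of the other libraries. Nr4a3 ranged from -0.0765 (without hyperoxia 3) to 0.151. edgeR called 5501 genes, DESeq2 5611, and the other alternatives 4224 to 6129. No paired analysis was possible because the labels number the animals without sharing a number between the groups. Depth limits Egr2 most, with 38 to 103 reads per library.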
